A study of Mus musculus with 29 samples.

Results

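Whether loss of MAF1 from hepatocytes had a different effect on liver mRNA under a high-fat (HF) diet than under Chow was asked here of 17 of the 29 livers in the series, namely those of both hepatocyte-specific knockout cohorts. The 4 groups were HF-fed Maf1hep-/- (n = 4), HF-fed Ctrl (n = 5), Chow-fed Maf1hep-/- (n = 4) and Chow-fed Ctrl (n = 4). Every animal was a male C57BL/6 mouse (C57BL/6J in the methods of the study) homozygous for a floxed Maf1 allele. Maf1hep-/- mice also carried 1 copy of an Alb-Cre transgene, whose albumin promoter drives recombination in hepatocytes, and Ctrl mice carried none, so that other liver cells were not targeted in any group and no group controlled for Cre itself. The diets (Chow, or HF with 60% of calories from lard) began at 4 to 5 weeks of age, and the livers were taken at 13 to 14 weeks after an overnight fast and 4 h of refeeding. The other 12 mice were whole-body knockouts and their controls and entered only an alternative fit. For each gene the effect of the knockout was the log2(FC) of Maf1hep-/- over Ctrl within a diet cohort, and the quantity of interest was the interaction, which is the HF effect minus the Chow effect in log2 units. A positive interaction therefore means a higher value of the knockout effect on HF.

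MAF1 is a repressor of RNA polymerase III, the enzyme that makes tRNAs, 5S rRNA and other short noncoding RNAs. It is held in check by nutrient signalling through mTOR and acts on transcription when nutrients or growth signals are withdrawn. The study states that mammalian MAF1 also represses Pol III, though less, when growth conditions are good. Of the Pol III products the tables list a few longer noncoding RNAs, which are given beside the Pol III machinery, and the other values below describe Pol II transcripts of the liver, among them the lipid, urea and plasma protein genes that this organ adjusts to feeding. Because whole liver was sequenced, fewer cells of a type and less RNA per cell cannot be told apart.

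The tables of both cohorts differed in depth and in form. Library totals ran between 25978153 and 32319706 counts in HF-fed Maf1hep-/- and between 25544816 and 28591597 in HF-fed Ctrl, and between 45954428 and 63756727 counts in Chow-fed Maf1hep-/- and between 43564164 and 63217938 in Chow-fed Ctrl. All HF values were whole numbers, as against 70.7% to 72.1% of the Chow values. For 400 of the 12970 genes tested the mean of HF Ctrl lay over 16-fold below that of Chow Ctrl, and for 9 genes over 16-fold above. Those 400 included Gapdh (16.2 CPM, which are counts scaled to library size, in HF Ctrl and 478 CPM in Chow Ctrl), Ppia (4.45 and 438 CPM) and 94 processed pseudogenes, and 91 genes stood at 0 in all 9 HF libraries with at least 1 CPM in all 8 Chow libraries. Diet, sequencing run and quantification cannot be told apart, so levels are compared within a cohort, and any level set across cohorts below carries this limit. A single Chow-fed Ctrl, replicate 1, also stood apart, and the results that it moved most are given without it.

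Maf1 was lost on both diets. Its levels were 1.5, 1.96, 1.81 and 1.65 CPM in the HF-fed Maf1hep-/- mice, against 20.2, 19.2, 20.7, 16.8 and 13.6 CPM in HF-fed Ctrl mice. On Chow they were 3.06, 3.94, 3.35 and 4.56 CPM in Maf1hep-/- mice, against 16.1, 18.4, 20 and 20.4 CPM in Ctrl mice. The groups did not overlap in either cohort, which matched the labels of all 17 mice. The log2(FC) was -3.39 on HF (SE 0.16, edgeR adjusted p-value 7.84e-10) and -2.33 on Chow (SE 0.15, adjusted p-value 6.94e-08). The interaction was -1.06 (SE 0.209, unadjusted p-value 8.44e-05, adjusted p-value 0.393), which did not pass the adjusted threshold. Gm35339, the gene annotated just downstream of Maf1 on the same strand of chromosome 15 (GRCm38, from 76354432 to 76365201), had the reverse arrangement. It averaged 55.1 ± 4.69 CPM in HF-fed Maf1hep-/- livers and 0.229 ± 0.182 CPM in HF-fed Ctrl livers (SD, n = 4 and 5), and 47 ± 8.23 CPM in Chow-fed Maf1hep-/- livers and 0.455 ± 0.33 CPM in Chow-fed Ctrl livers (SD, n = 4 each). Gm35339 rose on both diets, by a log2(FC) of 7.87 on HF (adjusted p-value 9.99e-10) and 6.65 on Chow (adjusted p-value 1.84e-08).

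Beyond the locus itself, the interaction was called for none of the 12970 genes (0%) at an edgeR quasi-likelihood adjusted p-value below 0.05. The smallest adjusted p-value was 0.393. At an unadjusted p-value below 0.05 there were 584 genes (4.5% of all), 330 with a positive interaction (2.54%) and 254 with a negative one (1.96%). The total is no higher a share than that threshold passes where no gene has an interaction. With library totals in place of TMM scaling the split was 174 positive and 443 negative. The median gene had a standard error of 0.209 and a 95% interval of ± 0.439 log2 units around its interaction, and at the 90th percentile this half-width reached 1.04, so that differences between diets of moderate size were not detectable for many genes. Other tools gave other counts: DESeq2 called 11 genes, limma-voom 0 (572 at an unadjusted p-value below 0.05), limma-voom with 3 RUVr factors of unwanted variation 9, and edgeR with 3 such factors 6. Of the DESeq2 calls, Maf1 had an adjusted p-value of 0.0206, Slco1a1, Srd5a1 and Cspg5 had 0.0271, and Cyp4a31 and Mt1 had 0.0343. An edgeR fit with the replicate number as a block within the HF cohort called 3 genes, Gm26967, Slco1a1 and Adh6-ps1, each with an adjusted p-value of 0.0303. HF Ctrl replicate 5 has no knockout of its number, so this block takes that mouse out of the HF comparison. The labels give no pairing by number, and the fit was added after the data were seen.

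The knockout effects themselves were more frequent on HF only when counted without adjustment or by adjusted p-value alone. At the cutoffs of the study 2 genes were called on each diet. At an unadjusted p-value below 0.05 there were 956 genes on HF (7.37%) and 275 on Chow (2.12%). The Chow share is lower than that threshold passes where no gene has an effect. The diets shared 23 genes, which is 2.41% of the HF genes and 8.36% of the Chow genes. Of those 23, 12 had the same sign on both diets and 11 the opposite sign. Across 12474 genes with a mean of at least 1 CPM, other than Maf1 and Gm35339, the HF and Chow effects had a Pearson r of 0.047 and a Spearman rho of 0.0203, given as a description since genes of a liver are not independent. Among the 584 genes with an unadjusted interaction p-value below 0.05, 337 had an effect at that level on HF alone (219 higher in Maf1hep-/-, 118 lower), 84 on Chow alone (58 higher, 26 lower), 14 on both and 149 on neither. The effects pointed in opposite directions for 534 of the 584. Genes entered this set by a large difference between the effects, which favours opposite signs. The split therefore does not show responses on 1 diet only.

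**Figure D1:**
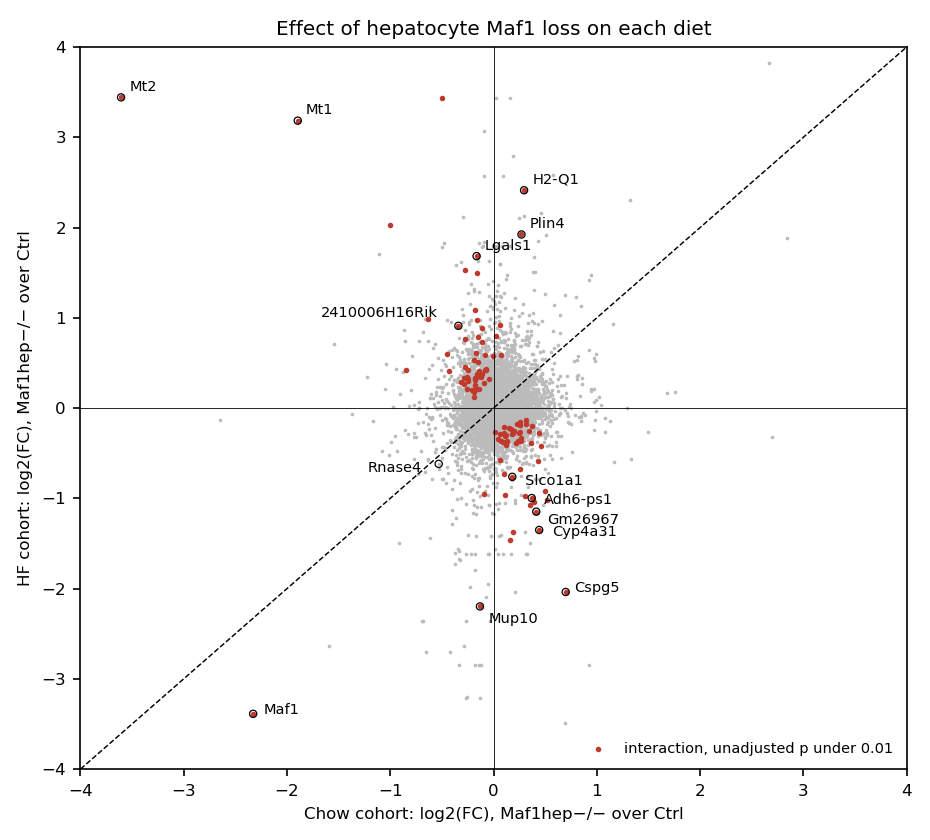
Effect of the knockout on each diet for 12475 genes with a mean of at least 1 CPM (Gm35339 left out, 1 further gene outside the axes). The horizontal axis is the Chow log2(FC) and the vertical axis the HF log2(FC) of Maf1hep-/- over Ctrl, red points are the 109 genes with an unadjusted interaction p-value below 0.01, and the dashed line marks equal effects. The median absolute log2(FC) was 0.109 on HF and 0.0898 on Chow. Most labelled points lie away from the dashed line, with Rnase4 close to it, but the labelled genes were picked from those described in the text.

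On HF 4 genes passed an adjusted p-value of 0.05 (0.0308% of those tested), which were Maf1, Gm35339, Gm15638 and Ugt1a9, and on Chow Maf1 and Gm35339 did. With the further cutoff of an absolute log2(FC) above 1, Maf1 and Gm35339 were called on each diet (0.0154% of the genes on HF and 0.0154% on Chow). The HF count at that cutoff was 15 with the replicate block in the HF cohort and 24 in DESeq2. It also depended on single mice, being 10 without HF Maf1hep-/- replicate 2, 8 without HF Ctrl replicate 5, 5 without Chow Ctrl replicate 1, and 4 without HF Ctrl replicate 1 or without Chow Maf1hep-/- replicate 2. Maf1hep-/- and Ctrl values did not overlap for 1.73% of all genes on HF and for 1.48% on Chow. Gm15638, an antisense transcript on chromosome 16 (GRCm38, from 45945606 to 45971370) that overlaps Phldb2 and Plcxd2 on the other strand, had 8.33, 10.9, 12.6 and 8.25 CPM in HF-fed Maf1hep-/- livers, against 17.4, 19.9, 22.3, 17.1 and 20.6 CPM in HF-fed Ctrl livers. On Chow it had 8.13, 7.24, 10.6 and 10.9 CPM in Maf1hep-/- livers and 10.5, 10.7, 8.54 and 9.63 CPM in Ctrl livers. The HF groups did not overlap and the Chow groups did. Gm15638 fell on HF (log2(FC) -0.96, SE 0.15, adjusted p-value 0.0253), had a log2(FC) of -0.10 on Chow (SE 0.155, adjusted p-value 1), and had an interaction of -0.86 (95% interval -1.31 to -0.41, adjusted p-value 0.84). Whether the counting used strand is not given in the sources used here, so its reads and those of its antisense partners cannot be told apart.

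Ugt1a9 encodes a UDP-glucuronosyltransferase, an enzyme that conjugates bilirubin-like and xenobiotic compounds for excretion. It had 19.1, 12.8, 16 and 20.7 CPM in HF-fed Maf1hep-/- livers, all above the 9.87, 10, 9.93, 10.4 and 9.44 CPM of HF-fed Ctrl livers. Ugt1a9 rose on HF (log2(FC) 0.79, SE 0.133, adjusted p-value 0.0484). On Chow the groups overlapped, at 68.1, 91.3, 98.4 and 79.8 CPM in Maf1hep-/- livers and 58.1, 80.1, 66.5 and 66.5 CPM in Ctrl livers, with a log2(FC) of 0.32 (unadjusted p-value 0.0312, adjusted p-value 1) in the same direction. The interaction was 0.47 (95% interval 0.07 to 0.87, unadjusted p-value 0.0231, adjusted p-value 1). Ugt1a9 shares its 3′ exons with the other Ugt1a genes, among which reads are hard to divide, and its level was lower throughout the HF cohort than in the Chow cohort.

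A further 11 genes reached an adjusted p-value below 0.1 on HF, a set that was singled out after the values were seen, and none of them passed that level on Chow. Of these 7 were higher in HF-fed Maf1hep-/- livers than in HF-fed Ctrl livers by 0.53 to 2.41 log2 units, namely Plin4, H2-Q1, Apcs, Uap1l1, Hexa, Hexim1 and the snoRNA host 2410006H16Rik. The other 4 were lower, with log2(FC) values of -2.20 to -0.76, namely Mup10, Gm26967, Adh6-ps1 and Slco1a1. Hexim1, an inhibitor of the elongation factor P-TEFb, can serve as the example with the closest values on both diets. It had 30.4, 31.7, 31.4 and 35.6 CPM in HF-fed Maf1hep-/- livers and 21.8, 22.7, 19.4, 23.8 and 23.9 CPM in HF-fed Ctrl livers (log2(FC) 0.53, adjusted p-value 0.0759), and its log2(FC) of 0.17 on Chow left an interaction of 0.36 (95% interval 0.05 to 0.67, adjusted p-value 1).

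Pulsatile growth hormone keeps a set of genes higher in male than in female mouse liver, and 1 of them, Slco1a1, was among the 12 most negative interactions named. Those 12, and the 12 most positive, were taken from genes whose groups did not overlap on at least 1 diet. For these genes, non-overlap here and below follows in part from that choice. Slco1a1, an organic anion uptake transporter on chromosome 6 (GRCm38, from 141907282 to 141946962), had 479, 381, 567 and 527 CPM in HF-fed Maf1hep-/- livers, against 954, 785, 992, 823 and 586 CPM in HF-fed Ctrl livers. On Chow it had 400, 459, 494 and 519 CPM in Maf1hep-/- livers and 406, 443, 362 and 440 CPM in Ctrl livers. The HF groups did not overlap, and the HF-fed Maf1hep-/- values lay in the range of both Chow groups or just above it. Slco1a1 had a log2(FC) of -0.76 on HF (SE 0.148, adjusted p-value 0.0759) and 0.18 on Chow (SE 0.153, adjusted p-value 1), with an interaction of -0.94 (95% interval -1.39 to -0.50, adjusted p-value 0.509). With the replicate block in the HF cohort the HF log2(FC) was -0.87 (adjusted p-value 0.0044) and the interaction was -1.05 (SE 0.147, adjusted p-value 0.0303). Leaving out HF Ctrl replicate 5, which that block also takes out, gave an interaction of -1.05 (edgeR adjusted p-value 0.0829).

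Srd5a1, a steroid 5-alpha-reductase, had 26.5, 43.4, 36.3 and 45.5 CPM in HF-fed Maf1hep-/- livers and 59.9, 55, 67.1, 53.5 and 67.2 CPM in HF-fed Ctrl livers. On Chow the direction was the other way, at 57.4, 66.1, 62.8 and 61.8 CPM in Maf1hep-/- livers and 46.6, 48.6, 48.3 and 64.7 CPM in Ctrl livers. The HF groups were apart and the Chow groups overlapped through a single Ctrl mouse. Its interaction was -0.93 (95% interval -1.35 to -0.51, unadjusted p-value 0.0002, adjusted p-value 0.433), from a log2(FC) of -0.67 on HF and 0.25 on Chow.

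Adh6-ps1, a transcribed pseudogene of the alcohol dehydrogenase cluster on chromosome 3 (GRCm38, from 138374121 to 138395002), followed the same arrangement. It had 35.5, 58.1, 52.1 and 68.8 CPM in HF-fed Maf1hep-/- livers and 84.2, 94.2, 153, 121 and 83.7 CPM in HF-fed Ctrl livers, against 44.5, 34.8, 45.1 and 48.5 CPM in Chow-fed Maf1hep-/- livers and 40, 30.5, 33.3 and 30.2 CPM in Chow-fed Ctrl livers. The interaction was -1.37 (95% interval -1.96 to -0.77, adjusted p-value 0.393), and Adh6-ps1 was called by DESeq2 (adjusted p-value 0.0117), by edgeR with 3 RUVr factors (adjusted p-value 0.00548) and with the HF replicate block (log2(FC) on HF -1.08 with adjusted p-value 0.00808, interaction -1.44 with adjusted p-value 0.0303). Reads of a pseudogene may in part stem from related alcohol dehydrogenase genes.

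Gm26967, a sense-intronic transcript within Pdilt on chromosome 7 (GRCm38, from 119512000 to 119514302), had 4.02, 4.86, 4.71 and 4.52 CPM in HF-fed Maf1hep-/- livers and 10.1, 10.8, 14.2, 10.2 and 4.92 CPM in HF-fed Ctrl livers. On Chow it had 6.7, 4.73, 6.32 and 5.62 CPM in Maf1hep-/- livers and 4.71, 5.41, 4.08 and 3.32 CPM in Ctrl livers. HF Ctrl replicate 5 lay close to the Maf1hep-/- mice, and without it the interaction was -1.74 (adjusted p-value 0.0101), against -1.56 (95% interval -2.23 to -0.89, adjusted p-value 0.393) with all mice. The block, which likewise takes HF Ctrl replicate 5 out of the HF comparison, gave -1.73 (adjusted p-value 0.0303) and is no separate support. Reads from unspliced Pdilt on the same strand cannot be separated from this transcript.

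**Figure D2:**
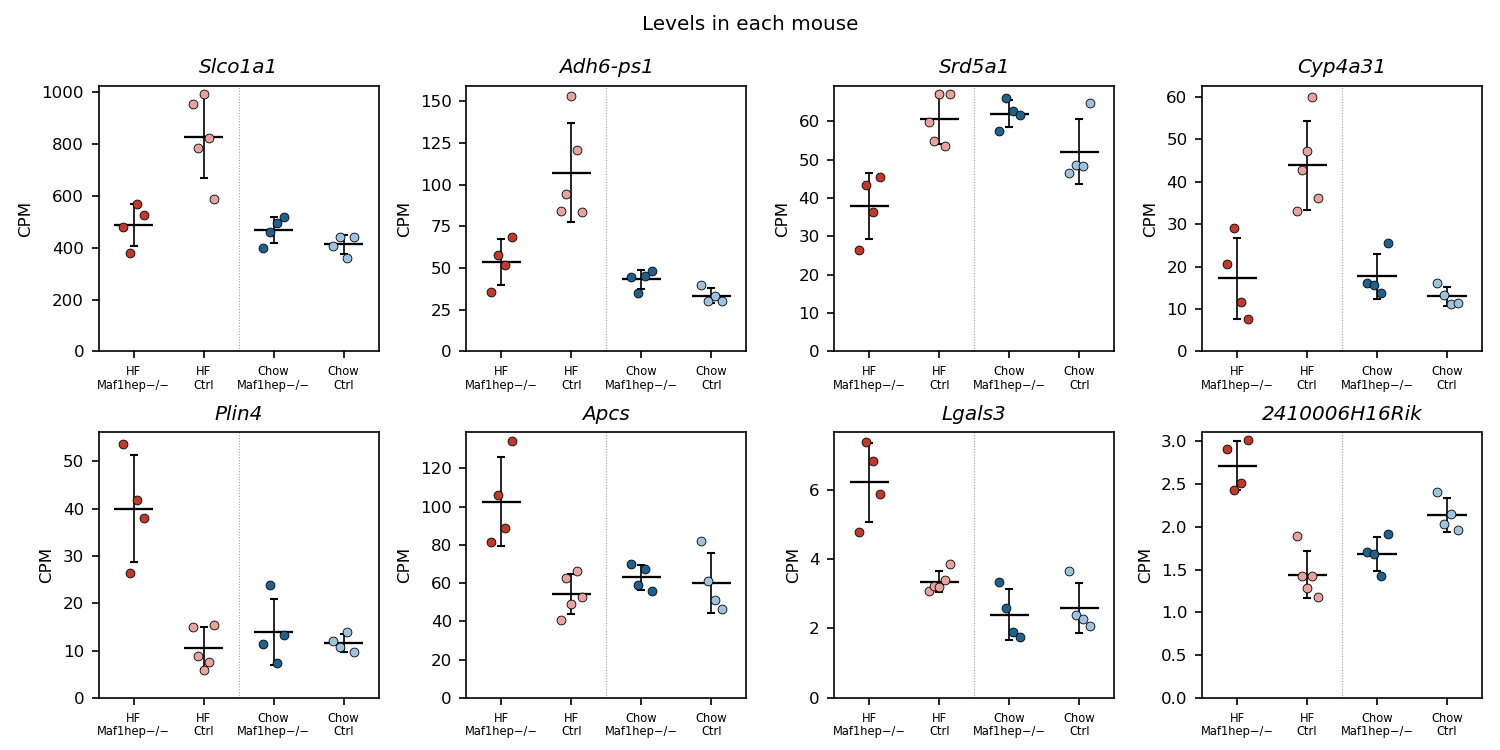
Level of 8 genes in each of the 17 mice in CPM, on a linear axis that starts at 0. Points are mice, horizontal bars are group means and error bars are SD, with HF-fed Maf1hep-/- and HF-fed Ctrl left of the dotted line and the Chow groups right of it. On HF every Maf1hep-/- mouse lay below every Ctrl mouse for Slco1a1, Adh6-ps1 and Cyp4a31 and above every Ctrl mouse for Plin4, Apcs and Lgals3. Non-overlap on at least 1 diet was part of the rule by which these 8 genes were named.

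Over the list of 26 male-biased growth hormone dependent genes measured, 23 had a negative interaction and 3 a positive one, as against 51.5% positive among all genes. The list median was -0.47 for the interaction, -0.55 on HF and 0.02 on Chow, beside 0.01, 0.00 and -0.01 over all genes. None of the 26 was called, and 3 (Slco1a1, Cyp4a12a and Cyp4a12b) had an unadjusted interaction p-value below 0.05 with a negative sign, as did 1.96% of all genes. The lowest values on HF belonged to Moxd1 (-2.64, with -1.59 on Chow), the steroid dehydrogenase Hsd3b5 (-1.12, with 0.04 on Chow) and the fatty acid hydroxylase Cyp4a12b (-0.88, with 0.02 on Chow). Igf1, the main growth hormone product of the liver, had a log2(FC) of -0.04 on HF and 0.09 on Chow, and the growth hormone feedback gene Socs2 had -0.25 and 0.17. As a median over the 26 genes of the log2 difference from the Ctrl mean of the cohort, HF-fed Maf1hep-/- mice stood at -1.26, -0.49, -0.17 and -0.25, against 0.07, -0.17, 0.38, 0.14 and -0.28 in HF-fed Ctrl mice. Replicate 1 of the knockouts was farthest out and the HF groups overlapped. On Chow the values were -0.16, -0.43, 0.29 and 0.19 in Maf1hep-/- mice and 0.13, 0.18, -0.20 and -0.13 in Ctrl mice. Without that replicate the list median of the interaction was -0.34.

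Genes repressed by pulsatile growth hormone, which are higher in females, were mostly too low to measure: 13 of 27 were tested, 10 with a positive interaction and 3 with a negative one. Their median was 0.19 for the interaction, 0.83 on HF and 0.13 on Chow. The interaction median was -0.06 without HF Maf1hep-/- replicate 1 and 0.55 without Chow Maf1hep-/- replicate 2. Of the members Cyp2a5, a coumarin hydroxylase, alone had an unadjusted interaction p-value below 0.05. Cyp2a5 had 293, 94, 311 and 143 CPM in HF-fed Maf1hep-/- livers and 127, 46.9, 60.4, 77.9 and 181 CPM in HF-fed Ctrl livers, and 245, 288, 275 and 152 CPM in Chow-fed Maf1hep-/- livers and 127, 310, 541 and 487 CPM in Chow-fed Ctrl livers. Both pairs of groups overlapped (interaction 1.70, 95% interval 0.22 to 3.18, adjusted p-value 1).

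Major urinary proteins are lipocalins that male mouse liver secretes in bulk as pheromone carriers, under growth hormone control. Of 19 measured Mup genes 18 had a lower mean in HF-fed Maf1hep-/- livers than in HF-fed Ctrl livers (50.7% of all genes had a higher one on HF and 48.2% on Chow), with a median log2(FC) of -1.68, and 17 had an unadjusted p-value below 0.05 in that direction (3.03% of all genes did). All 19 also had a lower mean in Chow-fed Maf1hep-/- livers, with a median of -0.33 and 2 genes at that level (0.709% of all genes). The interaction was negative for 16 and positive for 3, with a median of -1.34, and no member was called. Mup17 had 95.3, 499, 450 and 179 CPM in HF-fed Maf1hep-/- livers, all below the 1620, 1670, 3170, 2270 and 765 CPM of HF-fed Ctrl livers. On Chow it ranged between 309 and 3020 CPM in Maf1hep-/- livers and between 816 and 3040 CPM in Ctrl livers, and the groups overlapped. Its interaction was -2.35 (95% interval -4.30 to -0.40, adjusted p-value 1). The list median per mouse stood at -2.69, -0.93, -0.86 and -1.89 in HF-fed Maf1hep-/- mice, below all of the -0.04, -0.29, 0.52, 0.25 and -0.49 of HF-fed Ctrl mice. On Chow it was -0.25, -1.38, -0.20 and 0.37 in Maf1hep-/- mice and 0.24, 0.51, -0.06 and -0.74 in Ctrl mice, with overlap. The family consists of near-identical copies among which reads can be split or lost, so its members are not separate observations. Mup10 shows the limit, with 0.0327, 0.0675, 0.0669 and 0.0558 CPM in HF-fed Maf1hep-/- livers and 0.265, 0.366, 0.394, 0.17 and 0.152 CPM in HF-fed Ctrl livers, against 23.8 to 36.2 CPM in Chow-fed Maf1hep-/- livers and 31.3 to 35.2 CPM in Chow-fed Ctrl livers. Its interaction of -2.07 (95% interval -2.96 to -1.17, adjusted p-value 0.393) thus rests on a handful of HF reads.

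Among lipid genes, Plin4 had the widest separation on HF. It encodes perilipin 4, a coat protein of lipid droplets, and lies on chromosome 17 (GRCm38, from 56100591 to 56109803). Its levels were 53.7, 26.5, 41.9 and 38 CPM in HF-fed Maf1hep-/- livers, against 15, 8.81, 5.84, 7.56 and 15.5 CPM in HF-fed Ctrl livers. On Chow they were 11.4, 23.8, 7.43 and 13.3 CPM in Maf1hep-/- livers and 12.1, 10.7, 14 and 9.69 CPM in Ctrl livers. The HF groups did not overlap, and only the HF-fed Maf1hep-/- group stood apart from the other mice. The log2(FC) was 1.92 on HF (SE 0.33, adjusted p-value 0.0629) and 0.27 on Chow (SE 0.344, adjusted p-value 1), with an interaction of 1.65 (95% interval 0.64 to 2.66, unadjusted p-value 0.00326, adjusted p-value 1). With the replicate block, which takes out HF Ctrl replicate 5, the HF effect of Plin4 was 2.14 (adjusted p-value 0.0259) and the interaction 1.87 (adjusted p-value 0.367). Plin3, another perilipin, had an interaction of 0.41 (95% interval 0.00 to 0.83), and of the 15 droplet coat and lipase genes 10 were positive and 5 negative, with a median of 0.11 that ranged between 0.02 (without HF Ctrl replicate 5) and 0.30 (without HF Maf1hep-/- replicate 2).

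Scd1, the desaturase that makes oleate and palmitoleate, had 4180, 885, 1700 and 4540 CPM in HF-fed Maf1hep-/- livers and 365, 165, 569, 362 and 1820 CPM in HF-fed Ctrl livers. On Chow it had 5010, 5000, 3740 and 1420 CPM in Maf1hep-/- livers and 3290, 2200, 1960 and 5350 CPM in Ctrl livers. Replicate 5 of HF-fed Ctrl overlapped the knockouts, and the Chow groups overlapped widely. The interaction was 1.86 (95% interval -0.16 to 3.88, unadjusted p-value 0.0687, adjusted p-value 1) with all mice and 2.70 (adjusted p-value 0.674) without that Ctrl mouse. The core enzymes of de novo lipogenesis did not share this. The interaction was -0.41 for Fasn (95% interval -1.66 to 0.85), -0.29 for Acaca (-0.70 to 0.13), -0.10 for Acacb (-0.95 to 0.75), 0.13 for Acly (-0.68 to 0.93) and -0.12 for Me1 (-0.80 to 0.55), and over 21 lipogenic genes the median was 0.09 with 13 positive, 8 negative and 0 at an unadjusted p-value below 0.05. That median was -0.02 without HF Maf1hep-/- replicate 4, and 0.21 without HF Ctrl replicate 4 and also without Chow Ctrl replicate 1. For the elongase Elovl5 it was -0.28 (-0.75 to 0.19) and for the desaturase Fads1 it was 0.06 (-0.54 to 0.66). Sterol synthesis (24 genes) had a median of 0.23, and no member at that level either. Single mice turned or doubled that value, which was -0.13 without HF Maf1hep-/- replicate 4, 0.46 without Chow Maf1hep-/- replicate 3 and 0.45 without Chow Ctrl replicate 1 (23 of 24 positive). These intervals still admit differences of over 1 log2 unit for Fasn.

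Genes of fatty acid uptake and VLDL assembly had 16 positive and 7 negative interactions over 23 genes, with a median of 0.15 (0.08 under library totals, 0.08 without Chow Ctrl replicate 1, and between 0.07 without HF Maf1hep-/- replicate 2 and 0.25 without HF Ctrl replicate 5), whereas genes of fatty acid oxidation had mostly negative ones. Apoe, an apolipoprotein of VLDL, had an interaction of 0.51 (0.04 to 0.99), and the VLDL lipidation factor Tm6sf2 one of 0.14 (-0.61 to 0.90).

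Ehhadh, the bifunctional enzyme of peroxisomal fatty acid oxidation and a PPAR alpha target, had 2000, 1460, 547 and 803 CPM in HF-fed Maf1hep-/- livers, against 3240, 3000, 4390, 4360 and 1540 CPM in HF-fed Ctrl livers. The HF groups of Ehhadh overlapped through Ctrl replicate 5. Its Chow groups overlapped too, at 1560, 2700, 1730 and 3260 CPM in Maf1hep-/- livers and 2640, 2040, 1850 and 1770 CPM in Ctrl livers. The interaction of Ehhadh was -1.61 (95% interval -2.72 to -0.51, adjusted p-value 1). Cyp4a31, a fatty acid omega-hydroxylase, had 20.7, 29, 11.6 and 7.7 CPM in HF-fed Maf1hep-/- livers and 33.2, 42.8, 47.2, 60 and 36.3 CPM in HF-fed Ctrl livers, without overlap, and an interaction of -1.79 (95% interval -2.75 to -0.83, adjusted p-value 0.904). It belongs to a cluster of close Cyp4a copies. Over 33 genes of PPAR alpha and fatty acid oxidation 26 were negative and 7 positive, with a median interaction of -0.20, a median of -0.16 on HF and 0.09 on Chow. The interaction median was -0.39 without HF Maf1hep-/- replicate 1 and -0.12 without HF Maf1hep-/- replicate 2. The mitochondrial enzymes of the list had small values, such as Cpt1a (-0.20) and Acadm (-0.06), while Fgf21, a fasting hormone, was at 1.12. Per mouse the list median overlapped on HF (0.21, -0.62, -0.08 and -0.27 in Maf1hep-/- mice and 0.25, 0.01, 0.17, 0.09 and -0.58 in Ctrl mice). Acsm2, a mitochondrial medium-chain acyl-CoA synthetase gene, was low throughout, at 0.425, 0.641, 0.669 and 0.92 CPM in HF-fed Maf1hep-/- livers and 1.56, 1.6, 2.01, 2.68 and 0.881 CPM in HF-fed Ctrl livers, and had an interaction of -1.56 (adjusted p-value 0.904, and 0.0345 in edgeR with 3 RUVr factors).

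The most positive interactions of the named genes belonged to both metallothionein genes, which encode small cysteine-rich proteins that bind zinc and copper and are induced through metal response elements, and by glucocorticoids and inflammation. The genes are neighbours on chromosome 8 and had interactions of the same sign, so the 250 bases before each RefSeq start are shown (GRCm38.p6, plus strand, Mt1 at chr8:94178839-94179088 and Mt2 at chr8:94172368-94172617). Capitals mark the core of the metal response element, searched on both strands as TGCACNC and TGCGCNC.
Mt1: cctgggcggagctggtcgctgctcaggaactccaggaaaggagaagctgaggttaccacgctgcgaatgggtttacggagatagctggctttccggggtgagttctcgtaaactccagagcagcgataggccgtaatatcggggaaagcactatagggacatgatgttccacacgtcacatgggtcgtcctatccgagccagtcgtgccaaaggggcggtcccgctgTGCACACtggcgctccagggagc
Mt2: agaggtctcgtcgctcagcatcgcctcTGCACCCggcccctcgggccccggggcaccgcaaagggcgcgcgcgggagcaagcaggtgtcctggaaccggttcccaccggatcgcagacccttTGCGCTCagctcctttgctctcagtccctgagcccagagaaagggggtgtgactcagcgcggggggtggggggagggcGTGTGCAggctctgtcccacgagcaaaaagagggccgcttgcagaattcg
In the window that also takes in the first 50 bases after the start, Mt1 held 3 matches and Mt2 held 4. Of 32851 RefSeq windows of that length 1.97% held at least 3 matches and 0.517% at least 4. GENCODE also annotates starts downstream of the RefSeq start for both genes. A match describes the letters and is no evidence of binding.

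Mt1 had 6.01, 27.1, 7.89 and 24.2 CPM in HF-fed Maf1hep-/- livers, all above the 1.56, 1.66, 0.645, 2.65 and 2.4 CPM of HF-fed Ctrl livers. Mt2 had 1.05, 1.96, 1.54 and 2.45 CPM in HF-fed Maf1hep-/- livers, likewise above the 0.166, 0.0333, 0.0359, 0.237 and 0.304 CPM of HF-fed Ctrl livers. On Chow a single mouse set the comparison. Mt1 had 32.4, 40.9, 27.1 and 18.2 CPM in Chow-fed Maf1hep-/- livers and 379, 26.2, 26 and 10.9 CPM in Chow-fed Ctrl livers. Mt2 had 2.99, 2.32, 2.7 and 1.12 CPM in Chow-fed Maf1hep-/- livers and 107, 1.71, 1.54 and 0.929 CPM in Chow-fed Ctrl livers. Ctrl replicate 1 was the mouse at 379 and 107 CPM. With all mice the interaction was 5.08 for Mt1 (95% interval 2.25 to 7.90, adjusted p-value 0.982) and 7.05 for Mt2 (95% interval 2.77 to 11.3, adjusted p-value 1). Without that mouse it was 2.69 for Mt1 (SE 0.719, unadjusted p-value 0.00234, adjusted p-value 0.733) and 2.73 for Mt2 (SE 0.619, unadjusted p-value 0.000392, adjusted p-value 0.727), and the Chow log2(FC) turned to 0.50 for Mt1 and 0.71 for Mt2, against -1.90 and -3.61 with all mice. The HF effect was 3.18 for Mt1 and 3.44 for Mt2 in both fits, with adjusted p-values of 0.414 for Mt1 and 0.692 for Mt2 with all mice and of 0.0494 for Mt1 and 0.00445 for Mt2 without that mouse. The spread is estimated over all 4 groups, so leaving out a Chow mouse also changes HF p-values. Mt2 had 5, 1, 1, 7 and 10 reads in HF-fed Ctrl livers, so its HF effect rests on few reads. With all mice, both genes were over 16-fold lower in HF Ctrl than in Chow Ctrl.

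Genes of the extracellular matrix and of fibrosis were higher in HF-fed Maf1hep-/- livers for 24 of 25 members, with a median log2(FC) of 0.34, and 12 of them had an unadjusted p-value below 0.05 in that direction, as did 4.34% of all genes. On Chow the median was 0.02. The interaction was positive for 22 and negative for 3, with a median of 0.44 (0.29 without Chow Ctrl replicate 4), and 6 had an unadjusted p-value below 0.05 against 2.54% of all genes, although none was called. Lgals1, the beta-galactoside binding galectin-1, had 21.9, 6.41, 38.1 and 22.3 CPM in HF-fed Maf1hep-/- livers and 11.3, 4.46, 6.42, 7.16 and 5.19 CPM in HF-fed Ctrl livers (interaction 1.85, 95% interval 0.61 to 3.09, adjusted p-value 1). Lgals3, galectin-3 of macrophages, had 4.77, 7.36, 6.82 and 5.88 CPM in HF-fed Maf1hep-/- livers, all above the 3.08, 3.23, 3.19, 3.39 and 3.86 CPM of HF-fed Ctrl livers, and its Chow groups overlapped between 1.75 and 3.66 CPM (interaction 1.0, 95% interval 0.38 to 1.63, adjusted p-value 1). Collagens had interactions of 0.91 (Col1a1), 0.74 (Col3a1), 0.45 (Col1a2) and 0.50 (Col4a2). Per mouse the list median was 0.19, 0.50, 0.27 and 0.50 in HF-fed Maf1hep-/- mice and -0.10, -0.07, -0.07, -0.11 and 0.35 in HF-fed Ctrl mice, where replicate 5 of Ctrl lay among the knockouts. On Chow it was 0.10, -0.20, 0.06 and 0.19 in Maf1hep-/- mice and -0.20, 0.28, -0.26 and 0.34 in Ctrl mice. Markers of stellate cells, the main matrix producers of liver, had summed levels of 507 to 647 CPM in HF-fed Maf1hep-/- livers and 529 to 579 CPM in HF-fed Ctrl livers, and 511 to 574 CPM in Chow-fed Maf1hep-/- livers and 467 to 583 CPM in Chow-fed Ctrl livers, overlapping on both diets.

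Acute phase genes, the plasma proteins that hepatocytes secrete in inflammation, had 22 positive and 2 negative interactions with a median of 0.54, but this rested on Chow Ctrl replicate 1. The list median per mouse was 0.80 in that mouse and -0.27, -0.34 and -0.32 in the other Chow-fed Ctrl mice, against 0.23, -0.12, -0.02 and -0.14 in Chow-fed Maf1hep-/- mice. Without it 13 of the 24 were positive and 11 negative, and the median was 0.05. On HF the knockouts stood at 0.02, 0.21, 0.72 and 0.53 and the Ctrl mice at -0.10, 0.07, -0.11, 0.01 and 0.15. Apcs, serum amyloid P component, was the member with the smallest interaction p-value. It had 81.7, 106, 88.7 and 134 CPM in HF-fed Maf1hep-/- livers, all above the 40.7, 62.9, 48.9, 66.2 and 52.6 CPM of HF-fed Ctrl livers, and 69.8, 58.9, 67.4 and 56.1 CPM in Chow-fed Maf1hep-/- livers and 81.8, 61, 51.4 and 46.6 CPM in Chow-fed Ctrl livers. The interaction of Apcs was 0.85 (95% interval 0.32 to 1.39, adjusted p-value 1) and 0.67 (adjusted p-value 0.758) without that mouse.

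Interferon-responsive genes leaned the same way on both diets: 30 of 36 had a higher mean in Maf1hep-/- livers on HF and 30 of 36 on Chow, with medians of 0.14 and 0.20, and the interaction was positive for 17 and negative for 19. The interaction median of -0.03 was -0.20 without Chow Ctrl replicate 1 (12 positive and 24 negative) and 0.18 without Chow Maf1hep-/- replicate 2. Within the list the antiviral GTPase Mx1 had 4.25, 3.34, 4.01 and 5.3 CPM in HF-fed Maf1hep-/- livers and 2.85, 1.56, 2.04, 2.81 and 2.98 CPM in HF-fed Ctrl livers, against 2.41, 2.15, 2.16 and 1.6 CPM in Chow-fed Maf1hep-/- livers and 2.17, 2.67, 2.53 and 1.9 CPM in Chow-fed Ctrl livers (interaction 0.94, 95% interval 0.33 to 1.55, adjusted p-value 1). Rsad2 had an interaction of 1.1, and the transcription factor Irf1 had -0.64. Class I histocompatibility genes present peptides to T cells, and 12 of 17 had a higher mean in Maf1hep-/- livers on HF. On Chow 16 of 17 did, beside 50.7% of all genes on HF and 48.2% on Chow. Their interaction was positive for 5 and negative for 12, with a median of -0.14, so that members differed in the sign of the interaction. H2-Q1 had 7.94, 2.94, 6.65 and 11.2 CPM in HF-fed Maf1hep-/- livers and 1.62, 0.798, 0.717, 0.882 and 2.67 CPM in HF-fed Ctrl livers, and 4.16, 4.51, 2.87 and 2.16 CPM in Chow-fed Maf1hep-/- livers and 1.92, 2.1, 1.6 and 5.52 CPM in Chow-fed Ctrl livers (interaction 2.12, 95% interval 0.71 to 3.52, adjusted p-value 1). H2-Q6 had 12.6, 13.5, 15.3 and 12.7 CPM in HF-fed Maf1hep-/- livers and 17, 21.7, 18, 21.3 and 12.8 CPM in HF-fed Ctrl livers, and 33.3, 24, 19.2 and 18.9 CPM in Chow-fed Maf1hep-/- livers and 19.5, 17.4, 16.6 and 16.1 CPM in Chow-fed Ctrl livers, so that its means pointed down on HF and up on Chow (interaction -0.88, 95% interval -1.39 to -0.38, adjusted p-value 0.982). These genes are close paralogs, and reads may be divided among them.

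**Figure D3:**
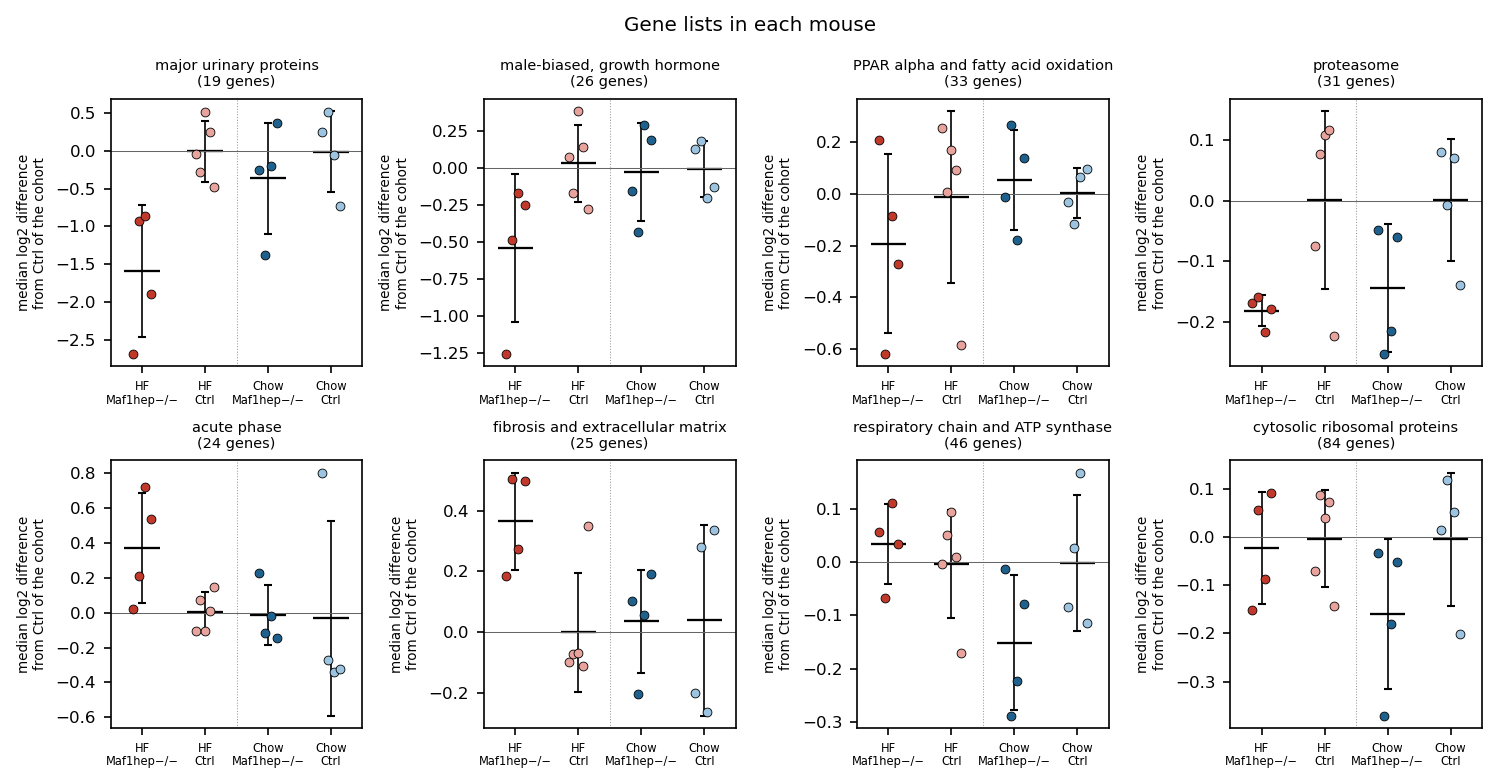
Median over the measured members of 8 gene lists of the log2 difference from the Ctrl mean of the same diet cohort, in each of the 17 mice. Points are mice, horizontal bars are group means and error bars are SD, with HF-fed Maf1hep-/- and HF-fed Ctrl left of the dotted line in each panel. Major urinary proteins separated the HF groups (-2.69 to -0.86 against -0.49 to 0.52) and not the Chow groups, and the acute phase panel shows Chow Ctrl replicate 1 at 0.80.

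Urea cycle and one-carbon genes had a higher mean in HF-fed Maf1hep-/- livers for 25 of 28 (median 0.19) and a lower one in Chow-fed Maf1hep-/- livers for 23 of 28 (median -0.12). The interaction was positive for 25, against 51.5% of all genes, with a median of 0.30 and 3 at an unadjusted p-value below 0.05 (Gnmt, Sdsl and Ass1), against 2.54% of all genes. Ass1, argininosuccinate synthase, had 649, 1170, 688 and 983 CPM in HF-fed Maf1hep-/- livers and 388, 504, 376, 638 and 879 CPM in HF-fed Ctrl livers, and 2090, 1300, 1840 and 1680 CPM in Chow-fed Maf1hep-/- livers and 1520, 1920, 2950 and 1890 CPM in Chow-fed Ctrl livers, with overlap on both diets (interaction 0.91, 95% interval 0.12 to 1.70, adjusted p-value 1). Gnmt, which uses glycine to consume S-adenosylmethionine, was at 0.87 (0.23 to 1.52), and the mitochondrial glutaminase Gls2 at 0.95. The list medians per mouse overlapped, at -0.05, 0.37, 0.08 and 0.29 in HF-fed Maf1hep-/- mice and -0.21, 0.06, -0.13, 0.23 and 0.18 in HF-fed Ctrl mice. Targets of the integrated stress response had a median interaction of 0.59 over 20 genes, 17 of them positive. This was 0.31 without Chow Ctrl replicate 1, 0.32 without HF Maf1hep-/- replicate 2 and 0.30 without HF Maf1hep-/- replicate 4, and the highest members were Asns (1.35), Gdf15 (1.28) and Fgf21 (1.12). At an unadjusted interaction p-value below 0.05 there were 3 positive members and 1 negative one, Slc7a5 (-1.05), beside 2.54% and 1.96% of all genes.

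Subunits of the respiratory chain and ATP synthase had a lower mean in Chow-fed Maf1hep-/- livers for 45 of 46 genes (median -0.16, 7 at an unadjusted p-value below 0.05, as were 0.709% of all genes) and a higher one in HF-fed Maf1hep-/- livers for 28 of 46 (median 0.01). The interaction was positive for 42, with a median of 0.14 and 6 at that level, against 51.5% of all genes positive and 2.54% at that level. Cox6c, a cytochrome oxidase subunit, had 166, 153, 185 and 191 CPM in HF-fed Maf1hep-/- livers and 158, 147, 150, 145 and 153 CPM in HF-fed Ctrl livers, and 172, 151, 161 and 157 CPM in Chow-fed Maf1hep-/- livers, all below the 173, 184, 191 and 175 CPM of Chow-fed Ctrl livers (interaction 0.38, 95% interval 0.15 to 0.61, adjusted p-value 1). Cytosolic ribosomal proteins behaved alike: 84 of 84 had a lower mean in Chow-fed Maf1hep-/- livers (median -0.16), 39 a higher and 44 a lower one in HF-fed Maf1hep-/- livers (median -0.01), and 66 a positive interaction (median 0.14, 9 at an unadjusted p-value below 0.05, against the same shares of all genes). The ribosomal median was 0.08 without Chow Maf1hep-/- replicate 2 and 0.09 without HF Maf1hep-/- replicate 4. Rps21 had 34.5, 40.6, 37.6 and 56.3 CPM in HF-fed Maf1hep-/- livers and 31.9, 37.4, 30.8, 34.5 and 32.6 CPM in HF-fed Ctrl livers, and 42.8, 31.7, 35.1 and 37.6 CPM in Chow-fed Maf1hep-/- livers and 44.1, 48, 43.4 and 40 CPM in Chow-fed Ctrl livers (interaction 0.59, 95% interval 0.22 to 0.97, adjusted p-value 1). These shifts were small and depended on the scaling: with library totals in place of TMM, 54 of 84 ribosomal and 36 of 46 respiratory genes had a positive interaction, with medians of 0.07 each, and 22 of 46 respiratory genes a higher mean in HF-fed Maf1hep-/- livers. Ribosomal protein genes also have many pseudogenes, and 15 of the 84 lay over 16-fold lower in HF Ctrl than in Chow Ctrl. Without those 15 the median was 0.14 over 69 genes. The list medians per mouse overlapped on both diets for both lists.

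The proteasome stands as a contrast. All 31 subunit genes had a lower mean in Maf1hep-/- livers on HF (median -0.19, 13 at an unadjusted p-value below 0.05, against 3.03% of all genes) and all 31 on Chow (median -0.14, 2 at that level). The interaction was positive for 9 and negative for 22, against 51.5% of all genes positive. Its median was -0.03, with 0 genes at an unadjusted p-value below 0.05. Per mouse the list median was -0.17, -0.16, -0.22 and -0.18 in HF-fed Maf1hep-/- mice and -0.07, 0.08, 0.11, 0.12 and -0.22 in HF-fed Ctrl mice, with Ctrl replicate 5 among the knockouts, and -0.05, -0.25, -0.22 and -0.06 in Chow-fed Maf1hep-/- mice and 0.08, -0.01, 0.07 and -0.14 in Chow-fed Ctrl mice. With library totals the Chow count was 27 of 31 lower.

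The smallest unadjusted p-value of the interaction belonged to 2410006H16Rik, a noncoding host gene of Snord49a, Snord49b and Snord65 on chromosome 11 (GRCm38, from 62602877 to 62604807). It had 2.91, 2.43, 2.51 and 3.01 CPM in HF-fed Maf1hep-/- livers, all above the 1.89, 1.43, 1.29, 1.42 and 1.18 CPM of HF-fed Ctrl livers. On Chow it had 1.7, 1.68, 1.43 and 1.92 CPM in Maf1hep-/- livers, all below the 2.41, 2.03, 2.15 and 1.96 CPM of Ctrl livers. The groups were thus apart in opposite directions. The log2(FC) was 0.91 on HF (SE 0.163, adjusted p-value 0.0629) and -0.34 on Chow (SE 0.167, adjusted p-value 1), and the interaction was 1.25 (95% interval 0.76 to 1.74, unadjusted p-value 4.59e-05, adjusted p-value 0.393, DESeq2 adjusted p-value 0.00762). Reads of the snoRNAs inside it may add to its count.

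Some genes had their separation on Chow. Of the 584 genes above, 84 had their effect at an unadjusted p-value below 0.05 on Chow alone. Gm14322, a zinc finger protein gene, had 0.996, 1.22, 0.656 and 0.908 CPM in Chow-fed Maf1hep-/- livers, all below the 1.3, 1.8, 2.07 and 1.66 CPM of Chow-fed Ctrl livers, while its HF groups overlapped (0.947, 0.911, 0.869 and 0.837 CPM in Maf1hep-/- livers, 0.398, 0.765, 1, 0.475 and 0.698 CPM in Ctrl livers). Its interaction was 1.26 (95% interval 0.49 to 2.03, adjusted p-value 1). Ankrd52, a regulatory subunit of protein phosphatase 6, had 17.3, 20.2, 17.3 and 16 CPM in Chow-fed Maf1hep-/- livers, above the 14.6, 11.6, 13 and 15.6 CPM of Chow-fed Ctrl livers, and overlapped on HF between 15.5 and 24.1 CPM in Maf1hep-/- livers and between 18.6 and 26.9 CPM in Ctrl livers (interaction -0.57, 95% interval -0.97 to -0.17, adjusted p-value 1). Cspg5, a membrane proteoglycan whose groups were apart on HF, had the most negative interaction of the named genes, -2.74 (95% interval -4.12 to -1.36, adjusted p-value 0.806). It had 0.523, 1.32, 0.234 and 0.614 CPM in HF-fed Maf1hep-/- livers and 1.66, 3.69, 3.69, 2.75 and 2.03 CPM in HF-fed Ctrl livers, and overlapped on Chow at 1.65, 1.1, 4.01 and 4.97 CPM in Maf1hep-/- livers and 1.52, 2.06, 1.41 and 2.18 CPM in Ctrl livers.

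**Figure D4:**
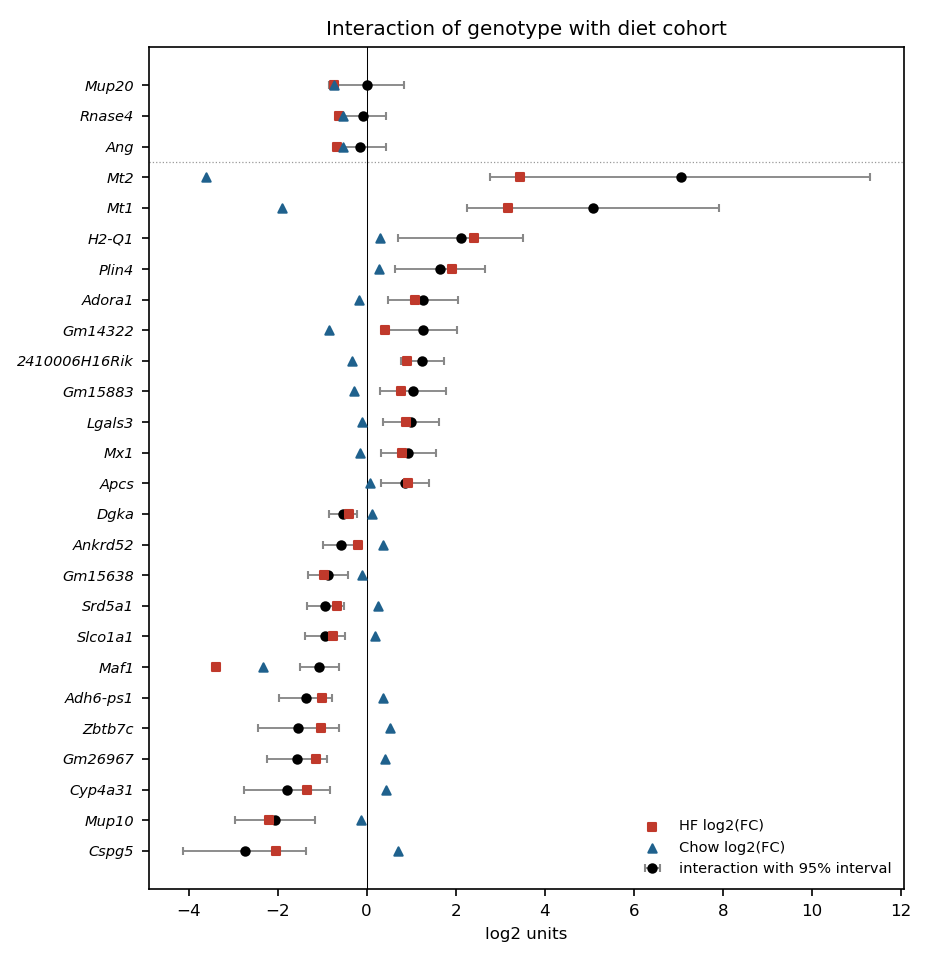
Interaction of genotype with diet cohort (black, with its 95% interval, not adjusted for the number of genes) for 23 named genes. Ang, Rnase4 and Mup20 are added above the dotted line. The 23 were among the largest interactions of either sign only within the genes that passed a filter. It required an unadjusted interaction p-value below 0.01, a mean of at least 1 CPM and no overlap of the groups on at least 1 diet. Red squares are the HF log2(FC) and blue triangles the Chow log2(FC) of Maf1hep-/- over Ctrl, all in log2 units. Squares and triangles lie together for the upper genes and apart for the rest, which follows in part from how the genes were chosen. The intervals of Mt1 and Mt2 span 2.25 to 7.90 and 2.77 to 11.3.

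For a few genes that the study names, the effects on both diets were close with all mice. Angiogenin (Ang) and Rnase4, secreted ribonucleases that share a promoter on chromosome 14, overlap in the annotation (GRCm38, Ang from 51091150 to 51102009 and Rnase4 from 51091077 to 51106151), so their reads are not independent. Ang had 105, 137, 147 and 110 CPM in HF-fed Maf1hep-/- livers, below the 180, 220, 182, 181 and 229 CPM of HF-fed Ctrl livers, and 115, 109, 82.6 and 78.3 CPM in Chow-fed Maf1hep-/- livers and 208, 105, 107 and 136 CPM in Chow-fed Ctrl livers. Rnase4 had 433, 429, 680 and 427 CPM in HF-fed Maf1hep-/- livers, below the 729, 805, 740, 717 and 791 CPM of HF-fed Ctrl livers, and 467, 445, 368 and 326 CPM in Chow-fed Maf1hep-/- livers and 783, 475, 449 and 615 CPM in Chow-fed Ctrl livers. The log2(FC) was -0.67 on HF and -0.53 on Chow for Ang (interaction -0.14, 95% interval -0.71 to 0.42) and -0.62 and -0.53 for Rnase4 (interaction -0.09, 95% interval -0.61 to 0.43), none of these with an adjusted p-value below 0.376. For Ang and Rnase4 this closeness rested on Chow Ctrl replicate 1, at 208 and 783 CPM. Without it the Chow log2(FC) was -0.27 for Ang (interaction -0.40, unadjusted p-value 0.0752, adjusted p-value 0.826) and -0.35 for Rnase4 (interaction -0.27, unadjusted p-value 0.257, adjusted p-value 0.873). Mup20, the pheromone darcin, had a log2(FC) of -0.73 on each diet. It had 1430, 2290, 2240 and 2280 CPM in HF-fed Maf1hep-/- livers, below the 3380, 3270, 4040, 3710 and 2640 CPM of HF-fed Ctrl livers, and 2960, 2190, 7030 and 5600 CPM in Chow-fed Maf1hep-/- livers and 6480, 10300, 6500 and 6270 CPM in Chow-fed Ctrl livers (interaction 0.00, 95% interval -0.84 to 0.85). These intervals admit differences of 0.42 to 0.85 log2 units in either direction, so equality was not shown.

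The Pol III machinery, whose activity MAF1 restrains, had medians near 0. Over 38 genes of Pol III subunits and initiation factors the median log2(FC) was -0.03 on HF and -0.01 on Chow and the interaction -0.03, with 16 positive and 22 negative. Polr2e, a subunit shared by all 3 nuclear polymerases, was the single member with an unadjusted interaction p-value below 0.05 (0.56, 95% interval 0.02 to 1.09). The 28 genes of mTOR nutrient signalling had a median interaction of 0.00, 14 positive and 14 negative, and -0.07 with 10 positive and 18 negative under library totals.

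Of 6 Pol III products in the tables, singled out after the values were seen, 7SK (Rn7sk), the RNA scaffold through which Hexim1 holds P-TEFb inactive, was the one well covered in both cohorts. It had 3640, 4900, 4630 and 5820 CPM in HF-fed Maf1hep-/- livers and 3350, 4360, 3060, 4110 and 2990 CPM in HF-fed Ctrl livers, and 10200, 8270, 8970 and 10100 CPM in Chow-fed Maf1hep-/- livers and 10900, 11600, 13800 and 8670 CPM in Chow-fed Ctrl livers. The groups overlapped on both diets. Rn7sk had a log2(FC) of 0.41 on HF (unadjusted p-value 0.022) and -0.26 on Chow (unadjusted p-value 0.15), with an interaction of 0.67 (95% interval 0.17 to 1.17, unadjusted p-value 0.0116, edgeR adjusted p-value 1) that stayed between 0.56 and 0.78 with 1 mouse left out. Rn7s1 and Rn7s2 (7SL, the RNA of the signal recognition particle), Rn7s6, Rpph1 (RNase P) and Rmrp (RNase MRP) were at or near 0 in all HF libraries, so that no interaction can be read for them. On Chow the log2(FC) was -0.68 for Rn7s1 (unadjusted p-value 0.0875), -0.70 for Rn7s2 (0.0759), -0.48 for Rpph1 (0.146) and -0.11 for Rmrp (0.67). Rn7s1 ranged between 9440 and 20900 CPM in Chow-fed Maf1hep-/- livers and between 10900 and 40100 CPM in Chow-fed Ctrl livers. Many pseudogene copies of 7SK and 7SL exist, among which reads may be divided.

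Cell type markers showed where the mix of cells could bear on these values. Hepatocyte markers (9 of 9 measured) summed to 87600 to 97600 CPM in HF-fed Maf1hep-/- livers, above the 69100 to 83500 CPM of HF-fed Ctrl livers, and to 74800 to 94900 CPM in Chow-fed Maf1hep-/- livers and 84400 to 90500 CPM in Chow-fed Ctrl livers. A sum is weighted to the most abundant markers. The list median per mouse overlapped on HF, at 0.07 to 0.33 in Maf1hep-/- mice and -0.09 to 0.12 in Ctrl mice. Kupffer cell and macrophage markers (15 of 16) summed to 397 to 791 CPM in HF-fed Maf1hep-/- livers and 443 to 651 CPM in HF-fed Ctrl livers, with medians of 574 and 498 CPM, and had medians of 367 CPM in Chow-fed Maf1hep-/- livers and 318 CPM in Chow-fed Ctrl livers. Endothelial markers (11 of 11) overlapped on both diets (547 to 603 CPM in HF-fed Maf1hep-/- livers and 541 to 620 CPM in HF-fed Ctrl livers). Markers of red blood cells (5 of 7) were variable, at 63.1 to 165 CPM in HF-fed Maf1hep-/- livers and 59.7 to 103 CPM in HF-fed Ctrl livers, and 97.6 to 341 CPM in Chow-fed Maf1hep-/- livers and 92 to 323 CPM in Chow-fed Ctrl livers. The part of these shifts in the gene results was not tested.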

How the data were processed

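Poly(A) or total RNA selection is not given in the sources used here; RNA of 17 mouse livers was sequenced, the HF cohort on 2 lanes of a HiSeq 4000 at 150 cycles. The authors trimmed reads, aligned them to mm10 and deposited expected counts per gene estimated with RSEM (the submitters' processing notes also name edgeR 3.32.1 and limma) in 1 table of 12992 genes for all 29 mice. No column was left without a sample.

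Expected counts were rounded to whole numbers, scaled by TMM, and a gene entered the test once any of the 17 libraries reached 1 CPM (12970 genes). A quasi-likelihood model of 4 groups (edgeR 4.0.16, limma 3.58.1, R 4.3.3) gave the HF effect, the Chow effect and their difference. p-values were adjusted by Benjamini-Hochberg over all 12970 genes. Knockout effects were called at an adjusted p-value below 0.05 with an absolute log2(FC) above 1 (the cutoffs of the study) and interactions at an adjusted p-value below 0.05. The study fitted each cohort on its own with limma-voom and RUVr. Fits of each cohort alone, limma-voom and RUVr factors were run here as separate alternatives, not in that combination, as were DESeq2 1.42.0, other filters and scalings, thinning, a replicate block and leaving out each mouse. The tests were checked on simulated counts. Coordinates and gene types came from GENCODE vM21 (GRCm38), which matched 12983 IDs, and promoter sequences from RefSeq (GRCm38.p6).

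Named genes were Maf1, Gm35339, the 12 most positive and 12 most negative interactions with an unadjusted p-value below 0.01, a mean of at least 1 CPM and no overlap of the groups on at least 1 diet, up to 3 members of each list with an unadjusted p-value below 0.05, and 28 genes that the study names. The results of a few of these genes are not reported here. The genes and the 34 pathway and 10 marker lists were chosen with earlier results of these data known. List medians per mouse used log2(CPM + 0.5).

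For mice of the same replicate number, deviations from the group means had r = 0.447, 0.133, 0.278 and 0.271 in the HF cohort. In the Chow cohort the values were 0.258, -0.334, -0.087 and -0.087. Mice of different numbers in the HF cohort had r between -0.547 and 0.343, so same and different numbers overlapped. The labels give no pairing in either cohort. Mice are taken as separate animals. The labels do not say which mice shared a litter. The study describes a single underweight HF-fed Maf1hep-/- mouse with low protein values of lipogenic enzymes. Which replicate it is, if any, is not given by the labels, so it was not left out by name.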

Additional observations from a re-analysis of the deposited data

Results flagged for a closer look

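Of 180 groups of mice checked over the genes and lists whose values are given by mouse, 12 held a mouse far from the others, and chance alone gives about 1 in 20. Chow Ctrl replicate 1 accounted for 4 of them: Mt1 at 379 CPM (others 10.9 to 26.2), Mt2 at 107 CPM (others 0.929 to 1.71), the acute phase list at 0.803 (others -0.342 to -0.271) and the integrated stress response list at 0.171 (others -0.0333 to -0.0266). HF Ctrl replicate 5 was the outlying mouse for Scd1, at 1820 CPM (others 165 to 569), and for the fibrosis and extracellular matrix list, at 0.348 (others -0.11 to -0.0683). Chow Ctrl replicate 4 was high for Gm35339 (0.949 CPM, others 0.276 to 0.303), Srd5a1 (64.7 CPM, others 46.6 to 48.6) and H2-Q1 (5.52 CPM, others 1.6 to 2.1). Mup20 was low in HF Maf1hep-/- replicate 1 (1430 CPM, others 2240 to 2290) and high in Chow Ctrl replicate 2 (10300 CPM, others 6270 to 6500). Rnase4 was high in HF Maf1hep-/- replicate 3 (680 CPM, others 427 to 433).

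For 2410006H16Rik every HF-fed Maf1hep-/- mouse lay above every HF-fed Ctrl mouse and every Chow-fed Maf1hep-/- mouse below every Chow-fed Ctrl mouse. The difference itself was tested as the interaction, 1.25 log2 units with an edgeR adjusted p-value of 0.393.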

How the results depend on the processing

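The interaction was called for 0 genes in the reported fit, with RLE scaling, library totals, no filter, filterByExpr, a mean of 1 CPM in each group, limma-voom (also with group weights), 1 RUVr factor, all 29 mice, each cohort fitted alone and thinning. It was called for 11 genes with DESeq2, 9 with limma-voom and 3 RUVr factors, 6 with edgeR and 3 RUVr factors (added after the data were seen), and 0 to 1 when 1 mouse was left out (Gm26967 without HF Ctrl replicate 5). The replicate block called 0 genes over both cohorts (886 at an unadjusted p-value below 0.05) and 3 in the HF cohort alone, a fit added after the data were seen. On HF 2 genes were called, against 1 with a mean of 1 CPM in each group (Gm35339 was then not tested), 24 with DESeq2, 22 and 23 with 3 RUVr factors in limma-voom and edgeR, 13 with the replicate block, 15 with the replicate block in the HF cohort, 4 with each cohort fitted alone, 3 with limma-voom, with limma-voom and 1 RUVr factor and with all 29 mice (Plin4 added each time, adjusted p-values 0.0278, 0.0418 and 0.0134), and 2 to 10 with 1 mouse left out. On Chow 2 genes were called, against 1 with a mean of 1 CPM in each group, 4 with limma-voom and 3 RUVr factors and 2 to 3 with 1 mouse left out. None of the 584 genes with an unadjusted interaction p-value below 0.05 changed sign in any of these 34 settings that tested it, and between 51.7% (without HF Maf1hep-/- replicate 4) and 99.7% of them stayed below it. The settings reuse the same mice, and the genes were chosen for interactions far from 0, so a change of sign was unlikely in advance. Of 95 named genes 86 kept the sign of the interaction throughout. The interaction of Acacb (-0.0998) was 0.00104 in limma-voom and 0.00125 with group weights, the interaction of Fads1 (0.0623) was -0.0149 with library totals, and the interaction of Mup20 (0.0045) was -0.0604 with library totals, -0.096 with the replicate block in the HF cohort and -0.00182 with each cohort alone. With 1 mouse left out the interaction ranged over -1.3 to 1.35 for Cyp2a4, -0.284 to 0.0191 for Rnase4, -0.294 to 0.111 for Acacb, -0.0196 to 0.331 for Acly, -0.348 to 0.0869 for Me1, -0.0706 to 0.247 for Fads1, -0.129 to 1.32 for Cd36, -0.114 to 0.364 for Tm6sf2 and -0.218 to 0.315 for Mup20. Of 1435 list medians 31 moved by more than 1 SD. The cause of these changes was not tested. With 4 or 5 mice a group, the median gene's interval of ± 0.439 log2 units limits what could be detected.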
